A study of Homo sapiens with 5 samples.

Results

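The genes described here are the 5 NF-kB subunit genes (NFKB1, NFKB2, RELA, RELB and REL) and 5 genes for IkB proteins and feedback inhibitors of the pathway (NFKBIA, NFKBIB, NFKBIE, TNFAIP3 and BCL3). They were picked by gene symbol from 25343 gene rows of an RNA-seq count table. All 10 had a row, and all 10 passed the filter on low counts that left 13604 genes for testing. The RNA came from SW620, a human colon carcinoma cell line, and all 5 libraries carried the same construct, labelled tet-MUC1shRNA, a tetracycline-inducible short hairpin RNA against the transmembrane mucin MUC1. Per the titles 3 libraries are neg, numbered 1 to 3, and 2 are pos, numbered 1 and 3. The labels mention treatment with vehicle or with doxycycline, the drug that switches such a construct on, without saying which name stands for which, so neg and pos are kept as names. They do not say whether the line was 1 clone, and no library with doxycycline and a control hairpin was analysed here. RNA came from triplicate cultures per the labels, which say nothing more of how the libraries relate, so p-values measure the spread between these libraries, which may be technical.

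NF-kB transcription factors are dimers of subunits that share a DNA-binding Rel homology region. RELA, RELB and REL carry a transactivation domain, whereas NFKB1 and NFKB2 encode the precursors p105 and p100, which are cut to p50 and p52. In resting cells IkB proteins such as those of NFKBIA (IkB-alpha), NFKBIB (IkB-beta) and NFKBIE (IkB-epsilon) hold the dimers inactive until the IkB kinase (IKK) complex marks them for degradation. Several of these genes are themselves NF-kB targets, NFKBIA and TNFAIP3 among them, so that an active pathway raises its own brakes. RELA is of interest in this series because MUC1-C, the C-terminal subunit of MUC1, has been reported to bind it.

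The promoters of these genes are shown because feedback on those that are NF-kB targets acts through NF-kB (kB) sites. RefSeq windows of 300 bases (250 before and 50 after the annotated transcription start, GRCh38.p14) were searched on both strands for the kB consensus decamer, and 8 of the 10 genes had a window in the table. RELB and NFKBIE had none. At least 1 match was found for 7 of the 8, RELA being without one, and 13.3% of the 27305 genes in the same table had a match. By window the share was 8 of 13 for these genes and 11.3% of all 35116 windows. The commonest match among these genes, GGGAATTTCC, stood in windows of 4 of the 8 genes (NFKB1, REL, NFKBIA and NFKBIB). It stood in windows of 0.179% of all genes. This decamer was picked for being common in these same windows, so the contrast cannot show that it is enriched in them. No promoter was assayed in this series, and a match is a description of letters, not a site shown to be bound. The first 4 sequences are whole windows, of the feedback inhibitors NFKBIA and TNFAIP3 and of BCL3 and REL, the genes whose pos libraries differed most (4.78-fold and 7.06-fold). The others are the stretch around the matches with up to 25 bases on each side. All are printed on the gene's strand with every match in capitals, overlapping ones merged.
NFKBIA, chr14:35404700-35404999, minus strand: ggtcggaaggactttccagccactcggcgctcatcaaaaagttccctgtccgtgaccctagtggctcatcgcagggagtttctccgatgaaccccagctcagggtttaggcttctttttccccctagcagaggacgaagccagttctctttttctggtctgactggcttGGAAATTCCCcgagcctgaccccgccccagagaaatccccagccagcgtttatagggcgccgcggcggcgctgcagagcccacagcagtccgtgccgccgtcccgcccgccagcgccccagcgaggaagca
TNFAIP3, chr6:137867009-137867308, plus strand: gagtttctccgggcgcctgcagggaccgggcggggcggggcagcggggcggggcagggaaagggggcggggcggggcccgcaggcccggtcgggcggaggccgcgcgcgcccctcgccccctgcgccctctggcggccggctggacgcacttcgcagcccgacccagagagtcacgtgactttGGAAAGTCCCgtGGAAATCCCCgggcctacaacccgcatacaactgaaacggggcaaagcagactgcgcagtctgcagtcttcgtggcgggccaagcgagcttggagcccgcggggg
BCL3, chr19:44748458-44748757, plus strand: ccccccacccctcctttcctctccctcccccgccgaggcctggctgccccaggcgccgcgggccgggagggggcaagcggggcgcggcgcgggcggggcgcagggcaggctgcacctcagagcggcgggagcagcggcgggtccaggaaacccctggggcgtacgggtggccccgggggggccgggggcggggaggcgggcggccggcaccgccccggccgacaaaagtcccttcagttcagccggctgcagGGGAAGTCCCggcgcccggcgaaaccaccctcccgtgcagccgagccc
REL, chr2:60881324-60881623, plus strand: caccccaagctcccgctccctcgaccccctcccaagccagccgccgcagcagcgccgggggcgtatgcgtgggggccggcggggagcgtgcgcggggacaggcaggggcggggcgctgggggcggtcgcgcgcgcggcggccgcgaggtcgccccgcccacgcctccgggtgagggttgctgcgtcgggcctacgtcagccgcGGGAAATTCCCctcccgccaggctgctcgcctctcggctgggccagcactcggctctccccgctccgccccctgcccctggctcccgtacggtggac
NFKB1, chr4:102501285-102501344, plus strand: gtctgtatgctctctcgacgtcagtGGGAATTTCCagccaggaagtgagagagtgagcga
NFKB2, chr10:102394446-102394534, plus strand: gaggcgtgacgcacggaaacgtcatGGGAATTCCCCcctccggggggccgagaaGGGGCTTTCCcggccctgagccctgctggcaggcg
NFKBIB, chr19:38899916-38900018, plus strand: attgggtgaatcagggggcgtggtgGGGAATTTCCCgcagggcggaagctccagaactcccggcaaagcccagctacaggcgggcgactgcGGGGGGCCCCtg

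**Figure D1:**
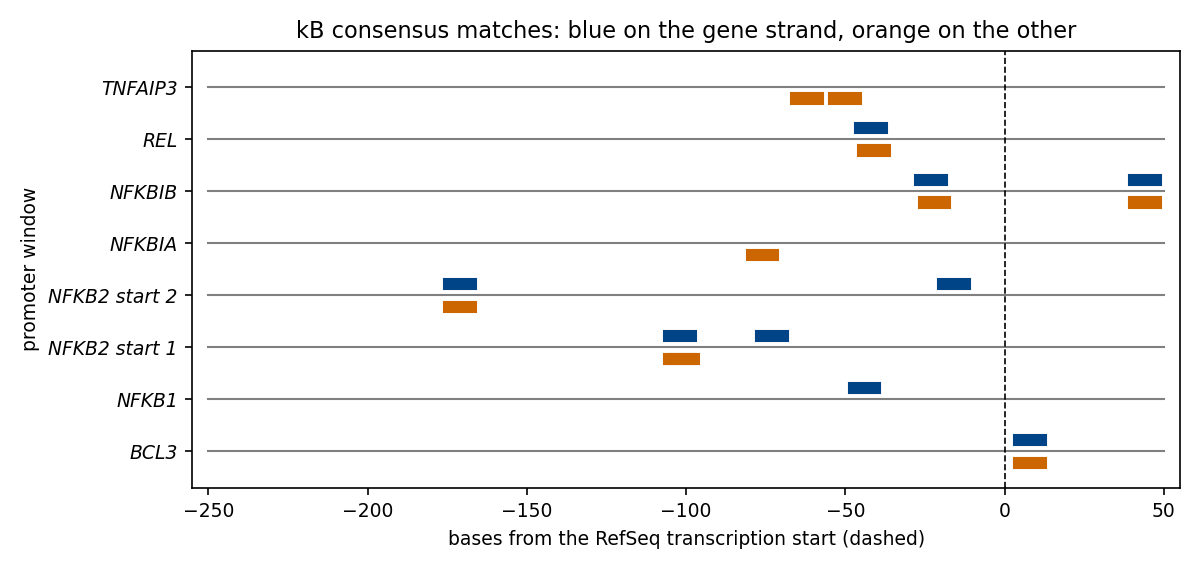
Positions of kB consensus matches in promoter windows of 7 genes, in bases from the RefSeq transcription start (x axis), with 1 line per window that holds a match and a bar per match, blue on the gene's strand and orange on the other. Matches lie from 176 bases before the start (in an NFKB2 window) to 48 bases after it (in the NFKBIB window).

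Counted upstream as negative from the RefSeq transcription start of the window, the NFKBIA match began at -81. The 2 TNFAIP3 matches began at -67 and -55, and all 3 were on the strand opposite to the gene. The REL match lay at -47 and the NFKB1 match at -49. The BCL3 match began at base 3 counted from the RefSeq start, and its letters met the consensus on both strands. In NFKB2 the matches fell in windows of 2 annotated starts, the printed one with matches at -107 and -78 and another with matches at -176 and -21. The gene bodies in GENCODE 44 (GRCh38) lie at chr4:102501330-102617302 for NFKB1, chr10:102394110-102402524 for NFKB2, chr11:65653599-65663090 for RELA, chr19:45001461-45038192 for RELB and chr2:60881491-60931612 for REL. Those of the inhibitors lie at chr14:35401079-35404749 for NFKBIA, chr19:38899700-38908893 for NFKBIB, chr6:44258166-44265788 for NFKBIE, chr6:137867214-137883314 for TNFAIP3 and chr19:44747705-44760044 for BCL3. These bodies need not begin at the RefSeq starts. Those of NFKB2, NFKBIB, REL and BCL3 begin before the matches, which thus lie within them (from chr2:60881527 for REL and chr19:44748710 for BCL3). Of the 10 canonical transcripts REL alone shared exon sequence with another annotated gene, an unnamed long non-coding RNA on the same strand that covers 51.3% of its 11108 nt and has no row of that name in the table.

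Between 10888704 and 14137678 reads were counted per library. MUC1 had 176, 252 and 218 reads in neg replicates 1, 2 and 3 and 27 and 13 in pos replicates 1 and 3, and fell by 3.07 on the log2 scale (SE 0.34, edgeR quasi-likelihood adjusted p = 0.0270). Of 12 colon epithelial markers 10 were expressed enough to be tested, led by KRT8, while 7 of 12 leukocyte markers, PTPRC and CD3E among them, had 0 reads in every library. The leukocyte markers summed to 0.324 to 3.77 CPM (TMM-normalised counts scaled to library size) per library, and 10 fibroblast and endothelial markers to 19.5 to 36.3 CPM, against 6090 to 16700 CPM for the epithelial markers, which were highest in pos replicate 3. The pos libraries resembled each other less than the neg libraries did. Their log2 CPM correlated at r = 0.912 across tested genes, against 0.983 to 0.993 for the neg pairs, and short transcripts were relatively high and long ones low in pos replicate 3. In the shortest of 5 equal length groups the median log2 ratio to neg was 1.18 in pos replicate 3 and 0.37 in pos replicate 1, and in the longest it was -1.25 and -0.26. The values of the 10 genes are therefore given by library, and their fold changes also for each pos library alone and with the length trend removed.

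In the neg libraries RELA was the most abundant of the 10 genes and REL the least, when levels were divided by transcript length. The place of REL depends on its length of 11108 nt. In CPM it averaged 20.1 in neg, and BCL3 (8.64 CPM) and NFKBIE (8.68 CPM) were lowest. RELA stood at 51.9 ± 3.82 CPM per kb (SD, n = 3, as for the neg levels that follow), above 90.3% of tested genes with a known length. NFKBIB, the most abundant inhibitor, followed at 34.9 ± 2.92 CPM per kb, then NFKB2 at 14.1 ± 0.792 and NFKBIA at 9.54 ± 1.22. The ranges of these 4 did not overlap with each other or with those of the genes below. RELB (5.24 ± 0.712 CPM per kb), BCL3 (4.60 ± 0.428), NFKBIE (3.70 ± 0.938) and TNFAIP3 (3.65 ± 0.290) formed a series in which each overlapped the next. NFKB1 at 2.96 ± 0.0581 and REL at 1.81 ± 0.611 CPM per kb were lowest, at the 28.8th and 20.4th percentile. The 2 precursor genes thus differed, with NFKB2 above NFKB1 in every library. RELA made up 67.2% to 68.8% of the summed level per kb of the 5 subunits in neg, 64.1% in pos replicate 1 and 67.5% in pos replicate 3. The summed level of the 5 inhibitors relative to the 5 subunits, also per kb, was 0.716 to 0.758 in neg, 0.678 in pos replicate 1 and 1.05 in pos replicate 3. These sums carry no test and no correction for the length trend. They follow the 2 groups named at the opening, with BCL3 and TNFAIP3 among the inhibitors and both precursor genes among the subunits. Their ratio compares RNA of 2 lists and does not measure inhibition of the dimers. The sums rest on the lengths of GENCODE canonical transcripts. NFKBIB, at 1192 nt, made up 60.3% of the inhibitor sum in pos replicate 3. At that length the trend over all tested genes was 1.15 on the log2 scale in that library, and NFKBIB was at 0.47. The part of length in the ratio of 1.05 was not tested.

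The comparison of pos with neg asks whether the genes of this pathway differed in cells whose MUC1 was lower. None of the 10 genes passed an adjusted p of 0.05 in edgeR's quasi-likelihood test over all 13604 tested genes, where 9.20% passed (4.13% lower and 5.06% higher in pos). None had an unadjusted p under 0.05, where 34.6% of tested genes did. DESeq2, which called 23.2% of tested genes, also called 0 of the 10, and so did limma-voom (7.93% of tested genes), in which 1 had an unadjusted p under 0.05. The 10 fitted log2 fold changes (pos over neg) split into 5 above and 5 below 0, with a median of -0.08 against -0.05 over all tested genes. The CPM values of the groups did not overlap for 3 genes, against 56.0% of tested genes. These were NFKB1, with both pos libraries higher (26.7% of tested genes), and NFKB2 and BCL3, with both lower (29.3%). In 5 of the 10 genes the pos libraries differed from each other by more than 2-fold, as they did in 33.5% of tested genes. In 4 of the 10 they lay on opposite sides of the neg mean, a share that was not counted over all tested genes. These were NFKBIB, NFKBIE, NFKBIA (pos replicate 1 at 0.963 of the neg mean, inside the neg range) and, marginally, RELA. In bulk RNA, fewer cells expressing a gene and less RNA per cell cannot be told apart. A p that misses the threshold does not show that a gene was unchanged, and the interval of each difference is given with it.

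**Figure D2:**
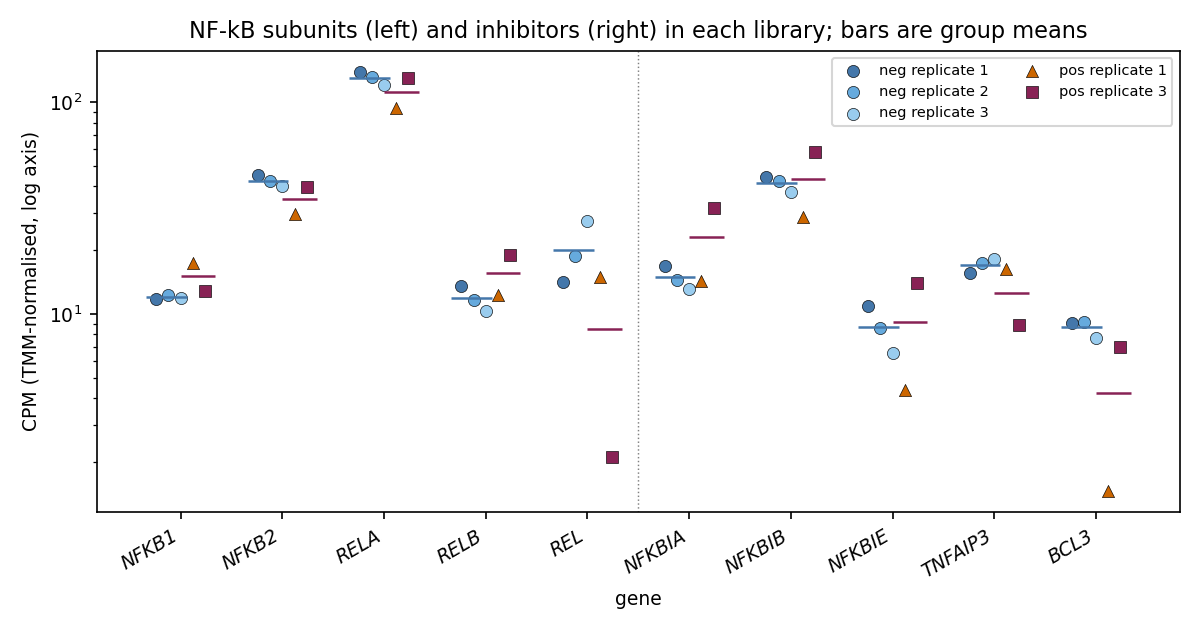
CPM (TMM-normalised, log axis) of the 5 subunit genes and the 5 inhibitor genes in each library, with circles for neg, triangles for pos replicate 1, squares for pos replicate 3 and bars for group means. BCL3 is lowest in pos replicate 1 (1.46 CPM) and REL in pos replicate 3 (2.11 CPM), each far below the other 4 libraries of that gene.

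Among the subunits, RELA had 139, 132 and 120 CPM in neg replicates 1, 2 and 3 and 94.0 and 131 CPM in pos replicates 1 and 3. Pos replicate 1 lay below all neg libraries and pos replicate 3 within them, so the groups overlapped. The log2 fold change was -0.22 (SE 0.22, edgeR adjusted p = 0.497), with a 95% interval from -0.75 to 0.32, or 0.593-fold to 1.25-fold. In fits with a single pos library, whose spread is then taken from neg, pos replicate 1 alone gave -0.50 and pos replicate 3 alone 0.05. With the length trend removed it was -0.38 (interval -0.74 to -0.01, edgeR adjusted p = 0.135), and then pos replicate 1 alone gave -0.54 and pos replicate 3 alone -0.21. RELA, the reported MUC1-C partner, thus passed in neither fit that uses all 5 libraries, at 1162 to 2101 reads per library.

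The precursor genes NFKB1 and NFKB2 had the smallest differences between the pos libraries, 1.36-fold and 1.34-fold. NFKB1 had 11.8, 12.3 and 11.9 CPM in neg replicates 1, 2 and 3, and 17.5 and 12.9 CPM in pos replicates 1 and 3. Both pos libraries were above all neg libraries, pos replicate 3 only slightly. Its log2 fold change was 0.34 (SE 0.23, 95% interval -0.21 to 0.89, edgeR adjusted p = 0.312), and 0.60 (0.19 to 1.01, adjusted p = 0.0612) with the length trend removed. Pos replicate 1 alone gave 0.52 and pos replicate 3 alone 0.15, and with the length trend removed 0.62 and 0.59. NFKB2, the substrate of the non-canonical pathway, had 45.1, 42.3 and 40.4 CPM in neg and 29.8 and 40.0 CPM in pos replicates 1 and 3. Here both pos libraries were below all neg libraries, pos replicate 3 by less than 1 CPM. The log2 fold change was -0.29 (SE 0.21, interval -0.81 to 0.24, edgeR adjusted p = 0.360), and -0.27 after removal of the length trend. The single-library values were -0.54 for pos replicate 1 and -0.04 for pos replicate 3. The 2 precursor genes therefore had fitted changes of opposite sign, neither past the threshold, and the difference between them was not tested.

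RELB, the usual partner of p52, had 13.5, 11.7 and 10.3 CPM in neg and 12.2 and 19.0 CPM in pos replicates 1 and 3. Pos replicate 1 was inside the neg range and pos replicate 3 above it. Its log2 fold change was 0.40 (SE 0.27, interval -0.27 to 1.07, edgeR adjusted p = 0.331), and 0.13 after removal of the length trend, with 0.02 for pos replicate 1 alone and 0.73 for pos replicate 3 alone. REL, which encodes c-Rel, best known from lymphoid cells, had 14.1, 18.7 and 27.5 CPM in neg replicates 1, 2 and 3 and 14.9 and 2.11 CPM in pos replicates 1 and 3. Pos replicate 1 lay inside a neg range that was itself 1.95-fold wide, while pos replicate 3 held 20 reads against 184 to 342 in the other 4 libraries. The Poisson 95% interval of those 20 reads, which covers counting error only, ran from 1.29 to 3.26 CPM, below the lowest bound of any other library, 12.2 CPM. The log2 fold change of REL was -1.22 (SE 0.75, interval -3.06 to 0.62, edgeR adjusted p = 0.282). Pos replicate 1 alone gave -0.46 and pos replicate 3 alone -3.20, and all libraries after removal of the length trend gave -0.57.

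Among the IkB genes, NFKBIA had 16.9, 14.5 and 13.2 CPM in neg and 14.3 and 31.7 CPM in pos replicates 1 and 3. Pos replicate 1 was inside the neg range and pos replicate 3 was 2.13 times the neg mean. The log2 fold change was 0.63 (SE 0.36, interval -0.26 to 1.51, edgeR adjusted p = 0.257), 0.00 after removal of the length trend, -0.08 for pos replicate 1 alone and 1.14 for pos replicate 3 alone. NFKBIB had 44.5, 42.6 and 37.8 CPM in neg and 28.8 and 57.9 CPM in pos replicates 1 and 3. The 2 pos libraries flanked the neg range, so that the fitted log2 fold change of 0.06 (SE 0.32, interval -0.73 to 0.84, edgeR adjusted p = 0.911) is a mean of a lower (-0.56) and a higher (0.52) single-library value. With the length trend removed it was -0.78 (interval -1.14 to -0.41, adjusted p = 0.0277), the only call among the 10 genes in that fit, in which 14.1% of genes passed. In that fit pos replicate 3 alone gave -0.66 and pos replicate 1 alone -0.89. NFKBIB thus changed sign with the correction, and its 1192 nt transcript is the shortest of the 10.

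NFKBIE had 10.9, 8.61 and 6.51 CPM in neg and 4.37 and 14.0 CPM in pos replicates 1 and 3. Its pos libraries also flanked the neg range, 3.21-fold apart, and the log2 fold change was 0.07 (SE 0.51, interval -1.18 to 1.32, edgeR adjusted p = 0.930), or -1.02 and 0.74 for pos replicates 1 and 3 alone and -0.19 after removal of the length trend. TNFAIP3, which encodes the ubiquitin-editing enzyme A20 that restrains signalling upstream of IKK, had 15.5, 17.4 and 18.2 CPM in neg and 16.3 and 8.86 CPM in pos replicates 1 and 3. Pos replicate 1 was inside the neg range and pos replicate 3 was 0.521 times the neg mean. The log2 fold change was -0.43 (SE 0.31, interval -1.18 to 0.32, edgeR adjusted p = 0.346), and -0.09 after removal of the length trend. For pos replicate 1 alone it was -0.08 and for pos replicate 3 alone -0.89. NFKBIA and TNFAIP3, both classic feedback targets with kB matches in the windows printed above, were therefore on opposite sides of the neg mean in pos replicate 3 and within the neg range in pos replicate 1.

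BCL3, an atypical nuclear IkB protein that works with p50 and p52 dimers on DNA, had the smallest unadjusted p of the 10 (0.129). It had 9.02, 9.18 and 7.72 CPM in neg and 1.46 and 6.96 CPM in pos replicates 1 and 3. Both pos libraries were below all neg libraries, but by very different amounts. The 18 reads in pos replicate 1 gave a Poisson 95% interval of 0.863 to 2.30 CPM, clear of the other libraries, whereas the interval of pos replicate 3 (5.38 to 8.85 CPM) overlapped that of neg replicate 3 (6.25 to 9.42 CPM). The log2 fold change was -1.06 (SE 0.60, interval -2.54 to 0.41, edgeR adjusted p = 0.252). Pos replicate 1 alone gave -2.59 and pos replicate 3 alone -0.27. After removal of the length trend the value was -1.56 (interval -2.70 to -0.42, edgeR adjusted p = 0.0728). It was then -2.73 for pos replicate 1 alone and -0.92 for pos replicate 3 alone.

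**Figure D3:**
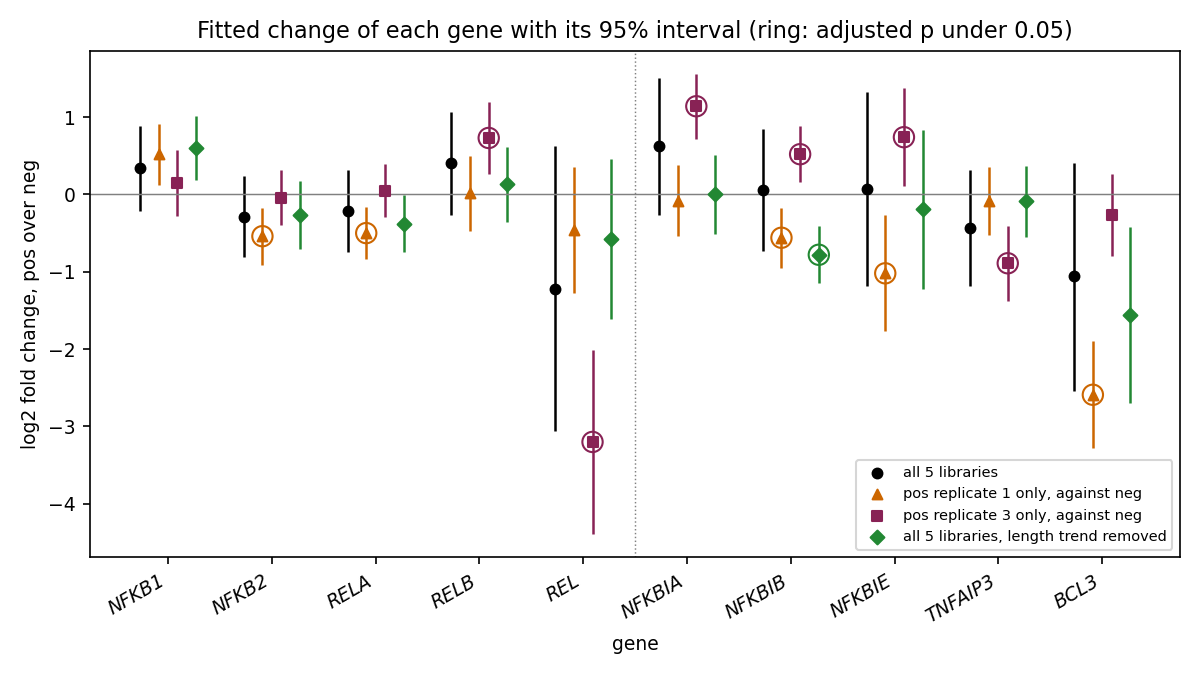
Log2 fold change of pos over neg (y axis) for each gene, with its 95% interval, from all 5 libraries (black), from each pos library alone against neg (orange and purple, with the lone library assumed to vary like the neg libraries) and from all 5 libraries with the length trend removed (green). Rings mark adjusted p under 0.05; no black point has one, and among green points NFKBIB (-0.78) alone does.

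Calls from the fits with a single pos library describe that library and not the group. For pos replicate 1 against neg, 5 of the 10 genes passed (NFKB2, RELA, NFKBIB, NFKBIE and BCL3, all lower), where 31.3% of genes did. For pos replicate 3 against neg, 6 passed (RELB, NFKBIA, NFKBIB and NFKBIE higher, REL and TNFAIP3 lower), where 63.1% of genes did. NFKBIB and NFKBIE were on both lists with opposite signs. In CPM, pos replicate 1 was below the neg range for 5 of the 10 genes (40.2% of tested genes), above it for 1 (38.8%) and inside it for 4. Pos replicate 3 was below it for 4 (48.4%), above it for 5 (42.4%) and inside it for 1.

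Transcript length moved with these differences in pos replicate 3. Across the 10 genes the log2 ratio of pos replicate 3 to the neg mean had a Spearman correlation of -0.67 and a Pearson correlation of -0.87 with log2 length (n = 10 genes in 1 library, which share its depth and are not independent). REL, the longest of the 10 and the lowest there, stood apart from the others in both measures, and its weight in the Pearson value was not tested. For pos replicate 1 the correlations were 0.32 and 0.26, though the trend over all tested genes fell with length there too. At the 11108 nt of REL the trend over all tested genes stood at -1.50 in pos replicate 3, where REL was at -3.25. At the 4665 nt of TNFAIP3 the trend was -0.66 and the gene at -0.94. At the 1559 nt of NFKBIA the trend was 0.85 and the gene at 1.09. NFKBIB (0.47 against a trend of 1.15) and BCL3 (-0.31 against 0.62) were below the trend in pos replicate 3, and they were also below it in pos replicate 1 (-0.53 against 0.36, and -2.57 against 0.17). NFKB1 was above it in both, at 0.10 against -0.47 in pos replicate 3 and 0.54 against -0.08 in pos replicate 1. What part length played in any single gene's value was not tested.

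**Figure D4:**
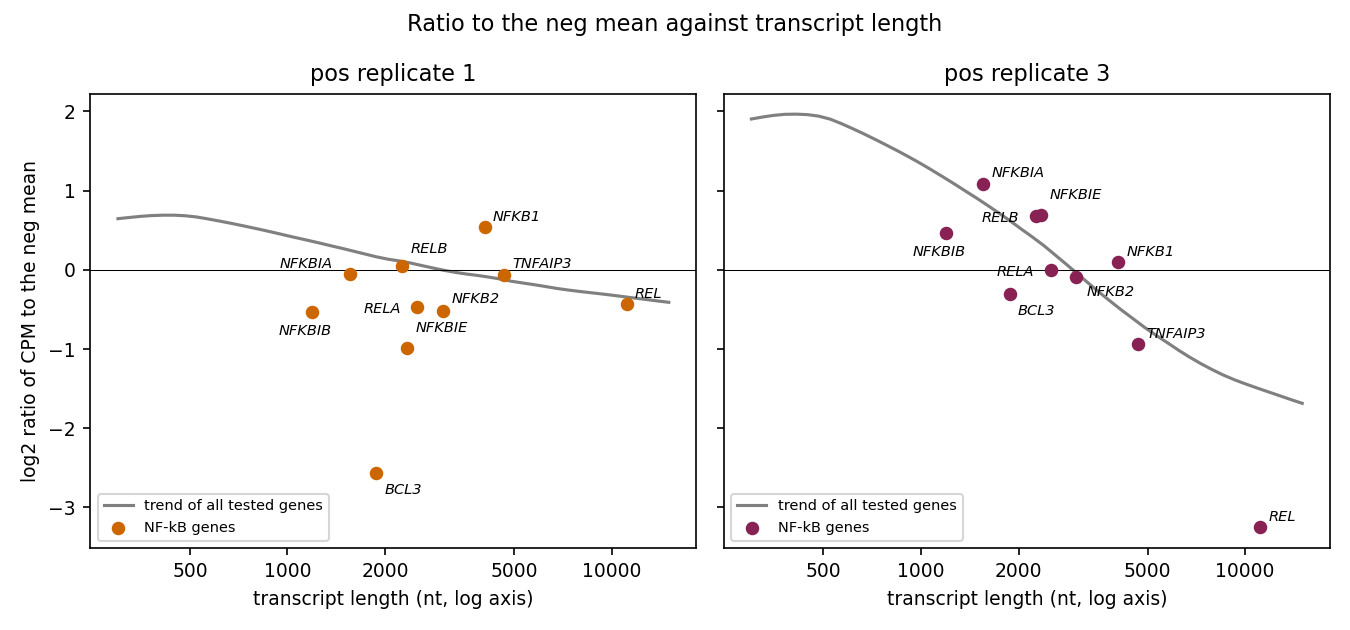
Log2 ratio of CPM to the neg mean (y axis) against canonical transcript length (x axis, log scale) for the 10 genes in each pos library, with the smoothed trend of all tested genes in grey. In pos replicate 3 the genes run from 1.09 (NFKBIA) to -3.25 (REL). Several stand off the falling trend, REL, BCL3 and NFKBIB below it and NFKB1 above it. In pos replicate 1 BCL3 stands alone at -2.57.

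The rest of the pathway was read from 4 lists. Of 41 genes for kinases and adaptors that carry the signal from receptors to IkB, all were tested and 0 passed in edgeR, against 9.20% of all genes. Of the 41, 6 had an unadjusted p under 0.05 (34.6% of all tested genes), DESeq2 called 5 (23.2% of all) and limma-voom 0 (7.93% of all). The list's median log2 fold change was -0.02. The catalytic IKK subunit gene IKBKB had 43.6, 40.6 and 35.9 CPM in neg and 49.7 and 34.6 CPM in pos replicates 1 and 3 (log2 fold change 0.07, SE 0.23, edgeR adjusted p = 0.836). The scaffold subunit gene IKBKG was at 6.81 ± 1.14 CPM in neg (SD, n = 3) and 7.45 ± 1.39 in pos (SD, n = 2), a log2 fold change of 0.12. The other catalytic subunit gene, CHUK, had 37.1, 35.0 and 37.0 CPM in neg and 29.8 and 18.1 CPM in pos, with both pos libraries lower (-0.60, SE 0.26, edgeR adjusted p = 0.165). The 2 most abundant genes of the list were RBCK1, for the HOIL-1 subunit of the linear ubiquitin ligase, at -1.25 (SE 0.34, edgeR adjusted p = 0.0674, DESeq2 adjusted p = 0.0106), and IRAK1, for a kinase of interleukin-1 and Toll-like receptor signalling, at -0.14 (SE 0.20). RBCK1 was at -1.85 with pos replicate 1 alone and -0.80 with pos replicate 3 alone.

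Of 22 other inhibitor genes 21 were tested, 1 fell and 1 rose (9.52%, against 9.20% of all tested genes). The list's median was -0.26. OTULIN, which encodes a deubiquitinase that removes linear ubiquitin chains, had 39.6, 37.7 and 45.0 CPM in neg and 21.5 and 17.0 CPM in pos and fell by 1.08 on the log2 scale (SE 0.22, edgeR adjusted p = 0.0444). Its transcript is 7969 nt long, and after removal of the length trend its value was -0.30 (adjusted p = 0.382). It also missed the threshold with library size as the only scaling (adjusted p = 0.0635). COMMD1, whose protein promotes turnover of RELA, had 8.95, 8.36 and 7.40 CPM in neg and 24.2 and 45.5 CPM in pos and rose by 2.08 (SE 0.31, edgeR adjusted p = 0.0338). Its transcript is 695 nt long, and with the length trend removed the rise was 0.89 (adjusted p = 0.0249). The most abundant genes of the list that did not pass were TAX1BP1, for an A20 adaptor, at -0.82 (SE 0.26, DESeq2 adjusted p = 0.0358), and the ubiquitin ligase gene ITCH at -0.97 (SE 0.51). For pos replicates 1 and 3 alone TAX1BP1 was at -0.56 and -1.13, and ITCH at -0.35 and -2.12.

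Of 34 receptor and ligand genes 17 were too low to test, beside 11739 of all 25343 gene rows. The untested 17 had at most 8 reads in any library and included TNF, LTA, LTB, IL1A, IL1B, CD40 and IL1R1. Of the 17 tested, 3 fell and 1 rose (23.5%, against 9.20% of all tested genes). The list's median was -0.25. TNFRSF10B, which encodes the death receptor DR5, had 403, 376 and 375 CPM in neg and 152 and 130 CPM in pos and fell by 1.45 on the log2 scale (SE 0.19, edgeR adjusted p = 0.0324). Its ligand gene TNFSF10, for TRAIL, had 7.20, 6.66 and 9.89 CPM in neg and 17.2 and 21.8 CPM in pos and rose by 1.30 (SE 0.26, edgeR adjusted p = 0.0441; 0.89, adjusted p = 0.0651 with the length trend removed; 0.89, adjusted p = 0.101 with library size as the only scaling). IL1RAP, the co-receptor gene of interleukin-1 signalling, had 13.8 ± 1.77 CPM in neg (SD, n = 3) and 4.07 ± 0.538 in pos (SD, n = 2) and fell, with a log2 fold change of -1.76 (SE 0.25, edgeR adjusted p = 0.0326). TNFRSF11A, which encodes RANK, passed on few reads, with 15, 17 and 10 in neg and 0 and 1 in pos (edgeR adjusted p = 0.0457), and missed the threshold after removal of the length trend (adjusted p = 0.0746) and without the filter on low counts (adjusted p = 0.0543). The most abundant that did not pass were the lymphotoxin receptor gene LTBR (0.44, SE 0.31) and the TWEAK receptor gene TNFRSF12A (0.81, SE 0.38). For pos replicates 1 and 3 alone LTBR was at -0.14 and 0.89, and TNFRSF12A at 0.03 and 1.35, the latter gene standing at -0.21 once the length trend was removed.

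Of 66 genes known as NF-kB targets 52 were tested, 3 fell and 0 rose (5.77%, against 9.20% of all tested genes). The list's median log2 fold change was -0.29, against -0.05 over all tested genes. Of the 52, 21 had an unadjusted p under 0.05 (34.6% of all tested genes), and DESeq2 called 10 (23.2% of all). The 14 not tested had at most 11 reads in any library and included IL6, CCL2, VCAM1 and PTGS2. The urokinase gene PLAU had 26.2, 23.2 and 18.2 CPM in neg and 8.66 and 10.9 CPM in pos and fell by 1.21 (SE 0.26, edgeR adjusted p = 0.0457). The ERK phosphatase gene DUSP5 had 73.2 ± 2.61 CPM in neg (SD, n = 3) and 37.3 ± 6.07 in pos (SD, n = 2) and fell by 0.97 (SE 0.20, edgeR adjusted p = 0.0447). PLAU and DUSP5 passed in the edgeR fit with the length trend removed as well (adjusted p = 0.0139 and 0.0211). In both pos libraries each lay below every neg library, as did 29.3% of tested genes. The calls rest on the same libraries, so this is no separate support. PLAU missed the threshold with DESeq2 size factors (adjusted p = 0.0503) and DUSP5 with library size as the only scaling (adjusted p = 0.0643). They are targets of other pathways too. The most abundant that did not pass were MYC (-0.77, SE 0.21, edgeR adjusted p = 0.0660) and IER3 (0.42, SE 0.28). MYC passed in DESeq2 (adjusted p = 0.0129) and in edgeR with the length trend removed (-0.56, adjusted p = 0.0409), while IER3 was then at -0.36, and at -0.06 and 0.81 for pos replicates 1 and 3 alone. Without any 1 of the neg libraries edgeR called 0 genes in the whole table, with 2510 to 3033 at an unadjusted p under 0.05, so the edgeR calls named here from all 5 libraries with the trend left in were lost. The fold changes moved little: MUC1 was at -3.21 to -2.97 (adjusted p = 0.178 to 0.217), COMMD1 at 2.01 to 2.14 and TNFRSF10B at -1.47 to -1.42. A neg library was left out only in that edgeR fit, not in DESeq2 or with the length trend removed.

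**Figure D5:**
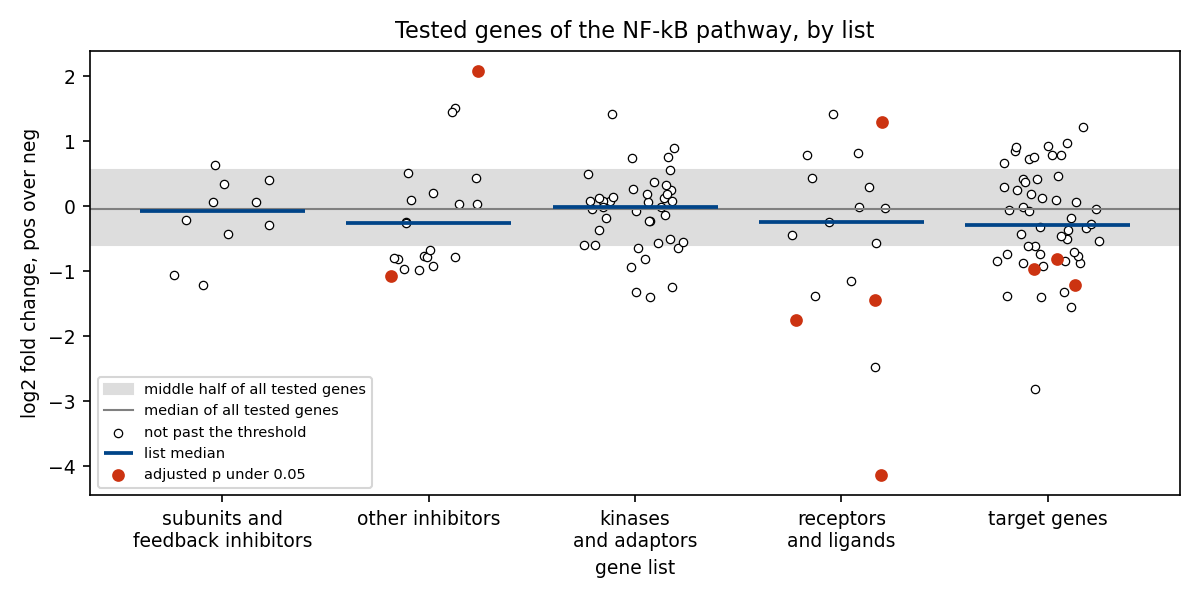
Log2 fold change of pos over neg (y axis) for the tested genes of the subunit and feedback inhibitor list and of the 4 other lists, with filled red points for adjusted p under 0.05, blue bars for list medians and a grey band for the middle of all tested genes, from the lower quartile (-0.60) to the upper (0.55). No point is red among the 10 subunit and inhibitor genes or the 41 kinases and adaptors, and 9 are red in the other lists.

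BCL3 was the gene of the 10 with the smallest p, and the genes most like it were sought among 10869 tested genes with a mean of at least 5 CPM, by Euclidean distance between mean-centred log2 CPM over the 5 libraries. They were NPAS1 (distance 0.378), LYPD3 (0.396) and C11orf96 (0.436). Each was lowest in pos replicate 1, at 1.38, 3.08 and 1.94 CPM, and close to its neg levels in pos replicate 3, at 5.59, 11.3 and 9.07 CPM. None of the 3 passed in edgeR (adjusted p = 0.304, 0.275 and 0.335), while with the length trend removed LYPD3 (-1.49, adjusted p = 0.0464) and C11orf96 (-1.77, adjusted p = 0.0410) passed and NPAS1 (-1.24, adjusted p = 0.112) did not. With 5 libraries that differ in depth and length bias, such likeness is a description of these libraries.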

How the data were processed

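Per the labels' protocols, TruSeq Stranded mRNA libraries were sequenced, and the authors deposited unnormalised gene counts, by symbol, in 1 table with a column for each of the 5 libraries. Reads were aligned with STAR, version 2.5.2b per the submitters' processing notes, which also list CASAVA 1.8.2. The build is given as hg19 there and as GRCh38 in the labels' protocols, while how reads were counted, and whether by strand, is not given in the sources used here. Of 25435 rows, 92 spike-in rows held 0 reads and were left out.

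The test was edgeR 4.0.16 under R 4.3.3 (filterByExpr, minimum count 10 and minimum total 15, TMM, glmQLFit and glmQLFTest, pos against neg, two-sided, all 5 libraries, no covariate) and Benjamini-Hochberg adjustment at 0.05 over all tested genes. SE is the log2 fold change over the root of F, and 95% intervals use the fit's degrees of freedom. Log2 CPM had a prior count of 2. Lengths were those of GENCODE 44 canonical transcripts, known for 97.4% of tested genes. The length trend was each library's lowess (span 0.3) of log2 CPM, centred per gene, on log2 length, and was removed as an offset over the genes with a known length. Alternatives were DESeq2 1.42.0, limma-voom (limma 3.58.1), 3 other scalings, 2 other filters, a replicate block, each library left out and the length trend removed. Both the edgeR fit and the removal of the trend were tested on simulated data. Within each group, every pair of libraries differed by more than sampling noise (chi-square per degree of freedom 6.35 to 162).

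The 10 genes and the lists were chosen with earlier results of these data known. The genes named were the 10, MUC1, the IKK subunits, the called genes of each list (at most 6), its 2 most abundant others, and the 3 genes most like BCL3. One called target gene is counted but not reported here. At these totals 3 counts equalled 0.189 to 0.316 CPM. Reads were not marked by molecule, so intervals from counts cover counting error only.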

Additional observations from a re-analysis of the deposited data

How the results depend on the processing

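Of the 10 NF-kB genes 0 passed in any of the 9 fits (edgeR, DESeq2 and limma-voom) that keep all 5 libraries and leave the length trend in, nor in the 3 fits without 1 neg library, while 0 to 6 passed when each library was left out in turn. Removing the length trend gave 1 (NFKBIB), in a fit where 14.1% of all genes passed. In that edgeR fit 4 of the 10 had an unadjusted p under 0.05, as had 4560 of the 13256 genes tested in it. Over the whole table, 1251 genes passed, 0 to 8819 when each library was left out in turn, 3161 with DESeq2, 606 with library size as the only scaling (148 higher and 458 lower against 689 and 562) and 87 with the replicate block, and with the length trend removed and pos replicate 1 or 3 left out 7035 and 4842. Other inhibitors called numbered 2 of 21 tested, or 5 with DESeq2 and 1 with library size only. They numbered 0 with the block and 1 with the length trend removed. Kinases and adaptors called numbered 0 of 41 tested, or 5 with DESeq2 and 1 with library size only. They numbered 1 with a filter of 5 CPM in 2 libraries and 1 with the length trend removed. Receptors and ligands called numbered 4 of 17 tested, or 0 with the block. Targets called numbered 3, or 10 with DESeq2, 1 with DESeq2 size factors, 1 with library size only, 0 with the block, 11 with the length trend removed, and 28 and 26 in the combined fits. When each library was left out in turn the counts ran from 0 to 17 for other inhibitors, 0 to 22 for kinases and adaptors, 0 to 13 for receptors and ligands, and 0 to 30 for targets. The cause of these shifts was not tested, beyond the fact that fits with a single pos library take its spread from neg.

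The block rests on numbers that neg and pos share (1 and 3), with neg replicate 2 unpaired. The deviations of same-numbered libraries from their group means correlated at r = -0.443 and -0.448 across genes. With 2 pos libraries the pos deviations mirror each other, so these values cannot show whether the numbers pair the samples. The labels do not say that they do, and the libraries were treated as unpaired.

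Some log2 fold changes changed sign between fits. Not all were near 0 in the edgeR fit of all 5 libraries with the trend left in. There OTULIN, a called gene, was at -1.08, TNFRSF12A at 0.81 and NFKBIA at 0.63. With library size only, which moved the median of all tested genes from -0.05 to -0.41, NFKB1 was at 0.00, RELB -0.04, NFKBIB -0.41, NFKBIE -0.43, LTBR -0.02, IER3 -0.03, IKBKB -0.26 and IKBKG -0.28. In limma-voom NFKBIB was at -0.04 and NFKBIE at -0.16, and with the replicate block at -0.01 and -0.10. With the length trend removed, NFKBIB was at -0.78, NFKBIE -0.19, IRAK1 0.05, TNFRSF12A -0.21, IER3 -0.36 and IKBKG -0.23. With pos replicate 1 also left out, NFKBIB was at -0.66, OTULIN 0.02, IRAK1 0.31, TNFRSF12A -0.04, IER3 -0.34 and IKBKG -0.23. With pos replicate 3 also left out, RELB was at -0.06, NFKBIA -0.30, NFKBIB -0.89, NFKBIE -1.08, TNFAIP3 0.06, LTBR -0.24, TNFRSF12A -0.38, IER3 -0.38 and IKBKG -0.22. With each library left out in turn, they ran from -0.50 to 0.05 for RELA, -0.08 to 1.14 for NFKBIA, -0.56 to 0.52 for NFKBIB, -1.02 to 0.74 for NFKBIE, -0.31 to 0.04 for IRAK1, -0.14 to 0.89 for LTBR, -0.06 to 0.81 for IER3, -0.16 to 0.28 for IKBKB and -0.10 to 0.35 for IKBKG. The lowest counts of the 10 genes were 18 reads for BCL3 and 20 for REL. Their counting intervals lay clear of the other libraries, while the pos libraries of these genes differed 4.78-fold and 7.06-fold.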
